A study of Homo sapiens with 4 samples.

Results

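The 43 genes described here encode the core machinery of autophagy, the selective receptors that feed it and its MiT/TFE transcription factors. They were taken by gene name from a list that uses no expression threshold, drawn up with earlier results of these data known, and all 43 are among the 32673 genes of the table. RNA sequencing was performed on imatinib-sensitive TF1-BA and imatinib-resistant TF1-BAR cells, with 2 libraries per cell line. TF1 is a GM-CSF-dependent human erythroleukaemia line. TF1-BA cells carry the p210 form of BCR-ABL, the fusion kinase of chronic myeloid leukaemia, from a retrovirus. TF1-BAR cells were derived from them by continuous imatinib treatment, so that both groups carry the same oncogene. By the labels, both were grown in RPMI-1640 with serum and 2 ng/mL GM-CSF, the TF1-BAR culture also received 2 μM imatinib, and 10000000 cells went into each library. The study's methods give a different GM-CSF concentration. The TF1-BAR libraries carry a vector title that the labels do not explain, and whether imatinib was present when RNA was collected is not stated. Resistance, the drug in the culture and that vector therefore cannot be told apart. TF1-BAR is a single derived line, and nothing states that its libraries, or those of TF1-BA, came from separate cultures. The p-values measure the spread between these samples, which may be technical.

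Autophagy encloses cytoplasm in a double membrane and delivers it to the lysosome. The ULK1 kinase complex starts the process and the class III phosphoinositide 3-kinase complex marks the membrane, after which ATG9 vesicles and lipid transfer proteins supply it. Ubiquitin-like conjugation then attaches ATG8 proteins such as LC3B to the growing membrane, where receptors carrying cargo bind them. In BCR-ABL-positive leukaemia cells, autophagy has long been studied as a route by which cells survive kinase inhibition.

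Expression was measured as FPKM, which scales the fragments of a gene to its transcript length and to the size of the library. The libraries held between 15465497 and 18042299 fragments, as recovered from the values. GATA1, TFRC, KIT, CD33 and EPOR, which mark the erythroid and progenitor state of TF1, were between 20.6 and 97.2 FPKM in all libraries. KIT was 28.4 and 25.4 FPKM in TF1-BA and 58.7 and 59.3 FPKM in TF1-BAR (log2 fold change 1.12 ± 0.08, adjusted p = 0.00409, limma). CD33 was 31.7 and 29.4 FPKM in TF1-BA and 54.2 and 58.5 FPKM in TF1-BAR (0.87 ± 0.07, adjusted p = 0.00555, limma). CSF2RA, a GM-CSF receptor subunit, was between 6.64 and 8.07 FPKM and the fetal globin gene HBG1 between 1.78 and 2.46 FPKM, and the measured monocyte and fibroblast markers were at or below 0.429 FPKM. CD3D, a T cell gene, was 19.2 and 20.7 FPKM in TF1-BA and 5.74 and 6.36 FPKM in TF1-BAR, while CD3E and CD3G did not exceed 0.0506 FPKM and CD8A did not exceed 0.411 FPKM. The B cell genes CD79A and CD79B were between 1.84 and 7.84 FPKM, with CD79B higher in both TF1-BAR libraries. The part of KIT, CD33, CD3D and CD79B in the results was not tested. In bulk RNA, fewer cells expressing a gene and less of its RNA per cell cannot be told apart.

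The regions just before the start sites of 3 members are shown as examples of 2 letter patterns that were searched for, and 2 of them, MAP1LC3B and CALCOCO2, were downregulated in TF1-BAR. MiT/TFE factors bind the E-box CACGTG, and NRF2, the product of NFE2L2, binds the antioxidant response element with the core TGACNNNGC. The sequences are from RefSeq (GRCh38.p14), read 5′ to 3′ on the strand of the gene, and end at the base before the start site. Capitals mark a match on either strand, which is a description of the letters and not of binding.
MAP1LC3B: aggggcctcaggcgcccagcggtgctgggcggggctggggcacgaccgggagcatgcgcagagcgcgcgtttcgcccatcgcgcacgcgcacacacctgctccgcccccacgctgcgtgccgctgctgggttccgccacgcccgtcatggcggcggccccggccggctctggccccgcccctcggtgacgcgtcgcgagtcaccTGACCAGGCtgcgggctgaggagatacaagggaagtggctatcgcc
CALCOCO2: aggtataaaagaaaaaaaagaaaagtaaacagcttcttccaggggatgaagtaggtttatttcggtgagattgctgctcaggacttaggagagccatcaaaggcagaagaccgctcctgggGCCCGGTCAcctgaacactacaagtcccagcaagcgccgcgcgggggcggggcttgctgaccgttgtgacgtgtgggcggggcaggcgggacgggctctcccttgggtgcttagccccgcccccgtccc
ATG3: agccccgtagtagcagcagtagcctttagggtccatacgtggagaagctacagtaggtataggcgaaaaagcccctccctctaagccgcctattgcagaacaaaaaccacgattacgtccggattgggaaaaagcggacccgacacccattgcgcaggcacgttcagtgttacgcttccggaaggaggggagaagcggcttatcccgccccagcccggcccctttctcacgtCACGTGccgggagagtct
MAP1LC3B lies at chr16:87392086-87392335 on the plus strand, within the interval that the table gives for the gene, and its antioxidant core begins at position −46 relative to the start. CALCOCO2 lies at chr17:48830785-48831034 on the plus strand, with the core at position −129, read on the opposite strand. ATG3 lies at chr3:112561963-112562212 on the minus strand and has an E-box at position −18, with another at position 6 that is not shown. The second one extends to TCACGTGA, the core of the CLEAR element that TFEB recognises.

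Of the 43 members, 37 have an entry in the promoter table, with 47 promoters of 300 bases that run from 250 bases before to 50 after the start. The E-box letters are in 2 of these 47 promoters (4.26%), those of ATG3 and ATG14, and in 7.26% of all 35116 promoters of the same length. The antioxidant core is in 3 of the 47 (6.38%), those of MAP1LC3B, CALCOCO2 and ATG101, and in 13.35% of all promoters. TCACGTGA, which contains an E-box, is in 1 of the 47 and in 0.98% of all promoters.

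In the comparison of TF1-BAR with TF1-BA, 10 of the 40 members that could be tested passed the threshold. MAP1LC3B, WIPI1, ATG4A, NBR1, VMP1 and CALCOCO2 were downregulated in TF1-BAR. ATG16L2, ATG4B, ATG5 and BNIP3L were upregulated. The differences were small, with log2 fold changes from −0.62 to 0.43, and 0 members passed both of the study's thresholds, which also ask for a log2 fold change of 1 or more in size. The study applied them to a count-based test, and here they were applied to limma. The test was limma on log2(FPKM + 0.5) over all 15519 genes with a mean of at least 0.5 FPKM, with Benjamini-Hochberg adjusted p under 0.05 as the threshold. A log2 fold change is TF1-BAR minus TF1-BA on that scale, with its standard error, and the pseudocount understates the change of low genes.

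The 10 members are 25% of those tested, and 26.9% of all 15519 genes passed the same threshold. Those that were upregulated are 10% of the members against 16.3% of all genes, and those that were downregulated are 15% against 10.5%. Of all genes, 4.75% passed both thresholds. The median log2 fold change was −0.06 over the members and 0.07 over all genes tested. An unadjusted p under 0.05 was found for 17 members (42.5%) and for 42.2% of all genes tested. The TF1-BAR and TF1-BA libraries did not overlap for 28 members (70%), 11 higher and 17 lower in TF1-BAR. Among all genes this held for 69.3%, with 40.9% higher and 28.4% lower. The list as a whole was therefore called about as often as genes at large. With 2 libraries per group, an exact permutation test of a single value cannot give a p below 0.333, so the calls depend on the variance that limma borrows from other genes.

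The calls depend on each library. Without TF1-BA replicate 1 or without TF1-BA replicate 2, 0 members had an adjusted p under 0.05, and 144 and 42 of the 15519 genes did. Without TF1-BAR replicate 1, 4 members did (MAP1LC3B, NBR1, VMP1 and CALCOCO2), and without TF1-BAR replicate 2 only MAP1LC3B did. Each of these fits leaves a group with 1 library, which is assumed to vary like the rest. The sign of all 10 differences was kept in these and all other settings tried, 17 in total. Scaling to the upper quartile moved the median of all genes from 0.07 to −0.01 and left 0 of the 4 upregulated members under the threshold and 6 of the 6 downregulated ones. With no filter on low values 2 members were called, without the trend of eBayes 4, and by voom on recovered fragments 18, the 10 among them.

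**Figure D1:**
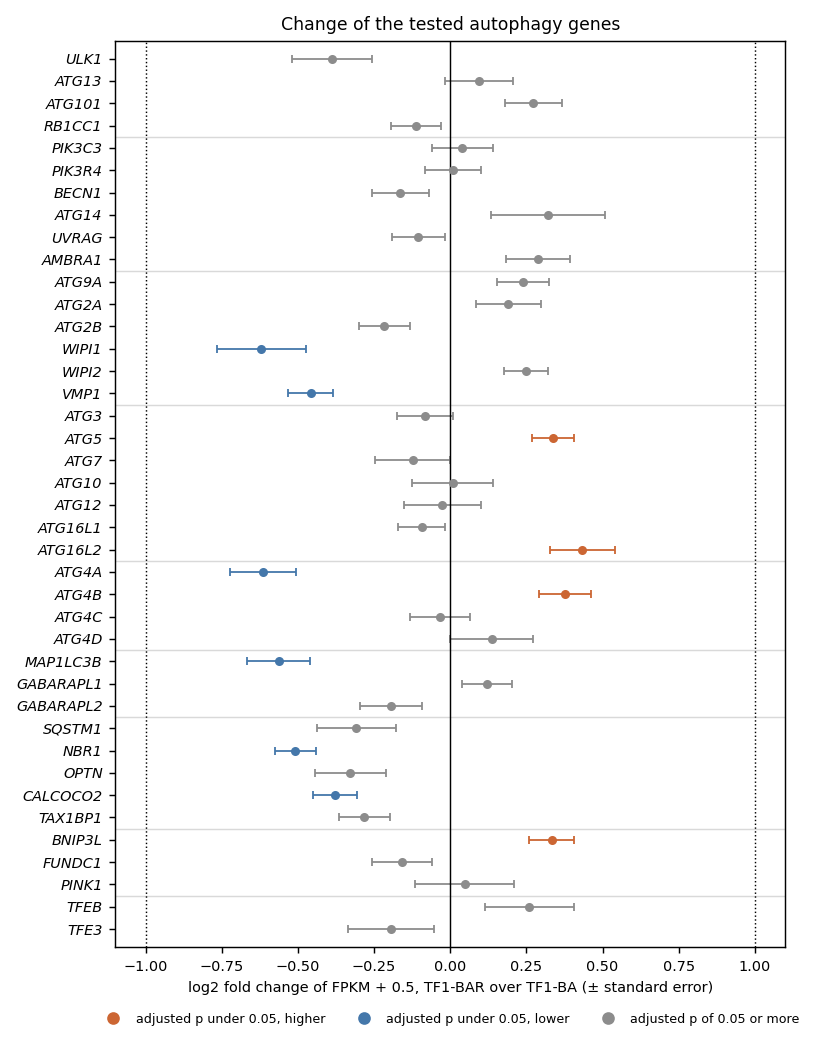
Log2 fold change of FPKM + 0.5 (horizontal axis, TF1-BAR over TF1-BA) of the 40 tested members, grouped by role from top to bottom. Points are estimates from 2 libraries per group, bars are standard errors and dotted lines mark a log2 fold change of 1 in size. Orange and blue points passed an adjusted p of 0.05 as higher (4) and lower (6), and none reached the dotted lines.

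The members were expressed at moderate levels. Their mean FPKM over the 4 libraries ran from 1.13 for TFEB to 19.04 for RB1CC1, with a median of 7.94 against 4.52 over all genes tested, and 29 of the 40 lay above the latter. 18 members had a mean of at least 10 FPKM. These included all 5 ubiquitin-binding receptors and the 3 tested ATG8 genes, and the lowest means were those of TFEB, ATG10, PINK1 and ATG7.

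**Figure D2:**
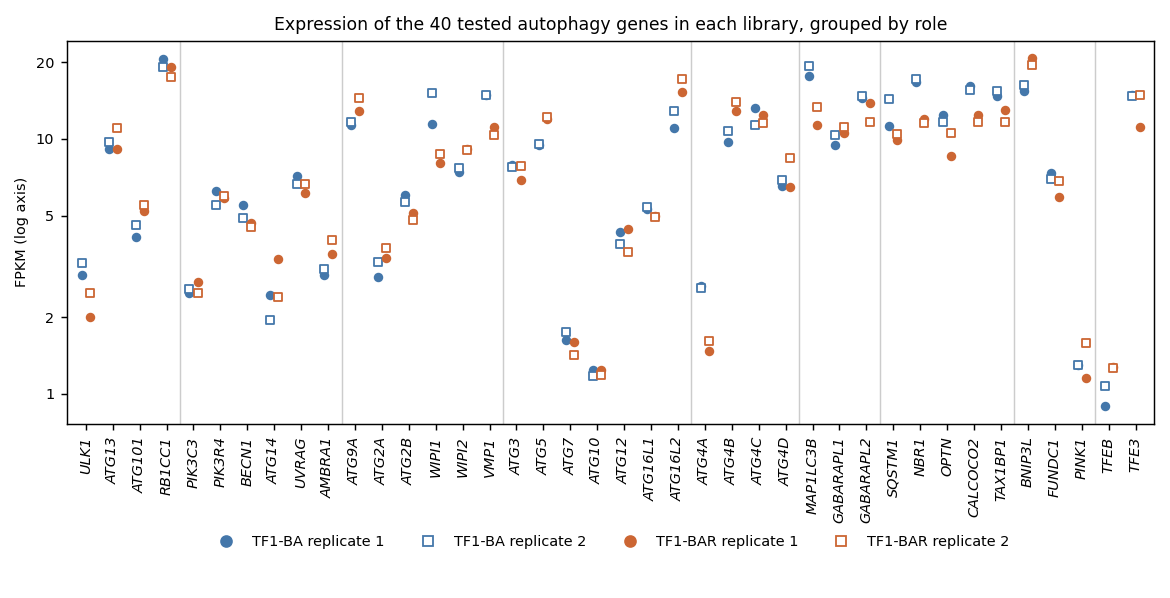
FPKM (vertical log axis) of the 40 tested members in each of the 4 libraries, grouped by role from left to right with grey lines between roles. Blue symbols are TF1-BA and orange symbols TF1-BAR, circles replicate 1 and squares replicate 2. All 5 receptors from SQSTM1 to TAX1BP1 lie lower in both TF1-BAR libraries, while most conjugation genes lie close together.

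In the ULK1 kinase complex, which receives nutrient signals and starts autophagy, 0 of 4 tested members were called. The kinase gene ULK1 was 2.91 and 3.25 FPKM in TF1-BA and 2.001 and 2.49 FPKM in TF1-BAR. The TF1-BAR libraries were both lower, with a log2 fold change of −0.39 ± 0.13, adjusted p = 0.0869. ATG101, which stabilises ATG13 in the complex, was 4.12 and 4.59 FPKM in TF1-BA and 5.20 and 5.52 FPKM in TF1-BAR. Both TF1-BAR libraries were higher (0.27 ± 0.09, adjusted p = 0.0907), and 19.2% of the annotated exon bases of ATG101 also belong to a gene on the other strand. The libraries overlapped for the adaptor ATG13 (0.09 ± 0.11) and the scaffold RB1CC1, also called FIP200 (−0.11 ± 0.08). ULK2, the second kinase, was below the filter, with recovered fragments of 5 and 6 in TF1-BA and 6 and 3 in TF1-BAR, and was at most 1.90% of the summed FPKM of the pair. ULK1 thus supplied nearly all of the measured kinase transcript in both cell lines.

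In the class III phosphoinositide 3-kinase complex, 0 of 6 members were called. The log2 fold changes of the lipid kinase PIK3C3 and its partner PIK3R4 were 0.04 ± 0.10 and 0.01 ± 0.09, each smaller than its standard error. BECN1, the scaffold that BCL2 binds, was 5.52 and 4.91 FPKM in TF1-BA and 4.69 and 4.50 FPKM in TF1-BAR. Its TF1-BAR libraries were both lower, but the difference did not pass the test (−0.16 ± 0.09, adjusted p = 0.246), and 17.1% of its exon bases overlap genes on the other strand. UVRAG, which directs the complex to endosomes, had a log2 fold change of −0.10 ± 0.09. ATG14, which directs it to autophagosome formation, was 2.45 and 1.95 FPKM in TF1-BA and 3.39 and 2.39 FPKM in TF1-BAR. Its standard error was the largest of the list, and its TF1-BAR libraries overlapped those of TF1-BA (0.32 ± 0.19, adjusted p = 0.254). Of its exon bases, 20.8% overlap FBXO34 on the other strand, which was 9.90 and 9.997 against 9.39 and 10.1 FPKM, so the level of ATG14 is uncertain. AMBRA1, a BECN1 partner, was 2.92 and 3.08 against 3.52 and 4.03 FPKM, higher in both TF1-BAR libraries without passing the test (0.29 ± 0.10, adjusted p = 0.101).

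Among the 6 members that supply lipid or read phosphoinositides, WIPI1 and VMP1 were downregulated. WIPI1 binds phosphatidylinositol 3-phosphate on the forming membrane (ENSG00000070540, chr17:68420948-68457513, minus strand). It was 11.4 and 15.1 FPKM in TF1-BA and 8.04 and 8.70 FPKM in TF1-BAR, a change from 13.3 ± 2.62 to 8.37 ± 0.471 FPKM (mean ± SD, n = 2). Both TF1-BAR libraries lay below both TF1-BA libraries, which differed from each other by more than the TF1-BAR libraries did. The log2 fold change was −0.62 ± 0.15, adjusted p = 0.0368 (limma). Of its annotated exon bases, 28.1% overlap genes on the other strand, and the kit named by the labels does not mark strand. The larger partner, ARSG, was 1.34 and 1.62 against 1.42 and 1.83 FPKM, with a log2 fold change of 0.10 ± 0.16. The part of this overlap in the difference was not tested.

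VMP1 is an endoplasmic reticulum protein needed for the membrane to separate (ENSG00000062716, chr17:59707192-59842255, plus strand). It was 14.9 and 14.9 FPKM in TF1-BA and 11.1 and 10.3 FPKM in TF1-BAR. The TF1-BA libraries were nearly equal and both TF1-BAR libraries were lower (−0.46 ± 0.07, adjusted p = 0.0156, limma). The other 4 members did not pass the test, although their libraries did not overlap. WIPI2, which recruits ATG16L1, was 7.40 and 7.68 against 9.09 and 9.02 FPKM and higher in TF1-BAR (0.25 ± 0.07, adjusted p = 0.0620). ATG9A, the scramblase of the seed vesicles, was 11.3 and 11.6 against 12.8 and 14.5 FPKM (0.24 ± 0.09, adjusted p = 0.101), and 38.8% of its exon bases also belong to a readthrough gene on the same strand. The lipid transporters ATG2A and ATG2B had estimates of opposite sign, 0.19 ± 0.11 and −0.22 ± 0.09.

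The relative abundance of WIPI1 was lower in both TF1-BAR libraries, at 60.6% and 66.3% in TF1-BA and 46.9% and 49.1% in TF1-BAR of the summed FPKM of WIPI1 and WIPI2. Its mean share went from 63.5% ± 4.01 to 48.03% ± 1.55 (SD, n = 2), and WIPI2 was the more abundant of the pair in both TF1-BAR libraries. The exact permutation p for this share was 0.333, the smallest possible. The WIPI relatives WDR45B and WDR45 are not in the sum, so these are not shares of the whole family. WDR45B was 17.5 and 16.6 against 18.7 and 22.0 FPKM, above WIPI1 and WIPI2 in every library. WDR45 was 5.83 and 6.44 against 6.54 and 7.36 FPKM, and neither relative was called. The ATG2A share went from 34.5% ± 3.16 to 41.9% ± 2.51 with the same p, while the summed FPKM of the ATG2 genes was 8.92 ± 0.0138 and 8.54 ± 0.00238.

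In the ubiquitin-like conjugation systems, ATG5 and ATG16L2 were upregulated and the other 5 members were not called. ATG5 is joined to ATG12 to form the core of the ligase for ATG8 proteins (ENSG00000057663, chr6:106045423-106325791, minus strand). It was 9.45 and 9.52 FPKM in TF1-BA and 12.01 and 12.2 FPKM in TF1-BAR. Replicates were close and all TF1-BAR values lay above all TF1-BA values (0.34 ± 0.07, adjusted p = 0.0266, limma). ATG16L2 is the less studied relative of ATG16L1, which places the ligase on the membrane (ENSG00000168010, chr11:72814308-72843674, plus strand). It was 10.99 and 12.8 FPKM in TF1-BA and 15.3 and 17.1 FPKM in TF1-BAR. Both TF1-BAR libraries were higher (0.43 ± 0.11, adjusted p = 0.0414, limma), and 8.0% of its exon bases overlap FCHSD2 on the other strand, which was 10.1 and 9.91 against 12.3 and 13.9 FPKM (0.37 ± 0.09, adjusted p = 0.0366). The part of FCHSD2 in the ATG16L2 difference was not tested.

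ATG16L1 itself was 5.29 and 5.39 against 5.005 and 4.94 FPKM, with a log2 fold change of −0.09 ± 0.08. ATG16L2 was the more abundant of the pair in every library, and its share of the summed FPKM went from 68.97% ± 2.07 to 76.5% ± 1.58 (SD, n = 2, exact permutation p = 0.333). The activating enzyme ATG7 (−0.12 ± 0.12), the conjugating enzymes ATG3 (−0.08 ± 0.09) and ATG10 (0.01 ± 0.13) and the ubiquitin-like ATG12 (−0.03 ± 0.13) had estimates within 0.13 of 0 on the log2 scale. ATG7 was 1.63 and 1.75 FPKM in TF1-BA and 1.60 and 1.42 FPKM in TF1-BAR. Its 18.1% overlap with VGLL4 on the other strand leaves its low level uncertain.

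The ATG4 proteases trim ATG8 proteins before conjugation and release them afterwards, and 1 was downregulated and 1 upregulated. ATG4A (ENSG00000101844, chrX:108091668-108154671, plus strand) was 2.65 and 2.61 FPKM in TF1-BA and 1.47 and 1.62 FPKM in TF1-BAR. It was the least abundant of the 4, and each TF1-BAR value was well below each TF1-BA value (−0.61 ± 0.11, adjusted p = 0.0195, limma). ATG4B, the most active enzyme on LC3B (ENSG00000168397, chr2:241637213-241673857, plus strand), was 9.76 and 10.7 FPKM in TF1-BA and 12.9 and 13.98 FPKM in TF1-BAR. Both TF1-BAR libraries were higher (0.38 ± 0.09, adjusted p = 0.0345, limma). ATG4C and ATG4D overlapped between the groups, with log2 fold changes of −0.03 ± 0.10 and 0.14 ± 0.14, and 14.7% of the exon bases of ATG4D overlap KRI1 on the other strand.

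As a share of the summed FPKM of the 4 proteases, ATG4A went from 8.26% ± 0.00129 to 4.49% ± 0.0841 and ATG4B from 32.2% ± 2.52 to 39.1% ± 0.402 (SD, n = 2). ATG4C was the most abundant protease in both TF1-BA libraries and ATG4B in both TF1-BAR libraries. Both differences in share had an exact permutation p of 0.333. The summed FPKM was 31.8 ± 0.374 in TF1-BA and 34.4 ± 1.58 in TF1-BAR.

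Of the 5 ATG8 genes, 3 were expressed above the filter and only MAP1LC3B, which encodes LC3B, passed the test. MAP1LC3B (ENSG00000140941, chr16:87383995-87404779, plus strand) was 17.7 and 19.3 FPKM in TF1-BA and 11.4 and 13.4 FPKM in TF1-BAR. All TF1-BAR values lay below all TF1-BA values, a change from 18.5 ± 1.14 to 12.4 ± 1.42 FPKM (mean ± SD, n = 2). The log2 fold change was −0.56 ± 0.10, adjusted p = 0.0216 (limma).

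GABARAPL1, a member of the GABARAP branch, was 9.48 and 10.4 FPKM in TF1-BA and 10.5 and 11.1 FPKM in TF1-BAR. Its TF1-BAR libraries were both higher, without passing the test (0.12 ± 0.08, adjusted p = 0.320), and 8.1% of its exon bases overlap a gene on the other strand. GABARAPL2 was 14.4 and 14.7 FPKM in TF1-BA and 13.9 and 11.6 FPKM in TF1-BAR. Its TF1-BAR libraries were both lower, also without passing (−0.20 ± 0.10, adjusted p = 0.214). MAP1LC3A, which encodes LC3A, was at 0.0315 and 0 FPKM in TF1-BA and 0.0360 and 0 FPKM in TF1-BAR, with fragments of 1 and 0 in TF1-BA and 1 and 0 in TF1-BAR. GABARAP was listed at 0 and 0.0571 FPKM in TF1-BA and 0.0840 and 0.0275 FPKM in TF1-BAR, with fragments of 0 and 2 in TF1-BA and 3 and 1 in TF1-BAR. Of the annotated exon bases of GABARAP, 35.4% are shared with a readthrough gene on the same strand and 12.8% with a gene on the other strand, so the level listed for GABARAP is uncertain. No comparison was made for these last genes, which lie at or below a floor of 3 fragments in every library.

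The summed FPKM of the listed ATG8 genes, without MAP1LC3B2, was 43.04 ± 2.01 in TF1-BA and 36.003 ± 0.191 in TF1-BAR (SD, n = 2). Within it, the share of MAP1LC3B went from 42.9% ± 0.655 to 34.3% ± 3.75 and that of GABARAPL1 from 23.1% ± 0.402 to 30.1% ± 1.05. GABARAPL2 took 34.7% and 33.2% in TF1-BA and 38.7% and 32.1% in TF1-BAR, so its libraries overlapped. The 3 genes were thus nearer to equal parts in TF1-BAR. The exact permutation p was 0.333 for the sum and for the first 2 shares.

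**Figure D3:**
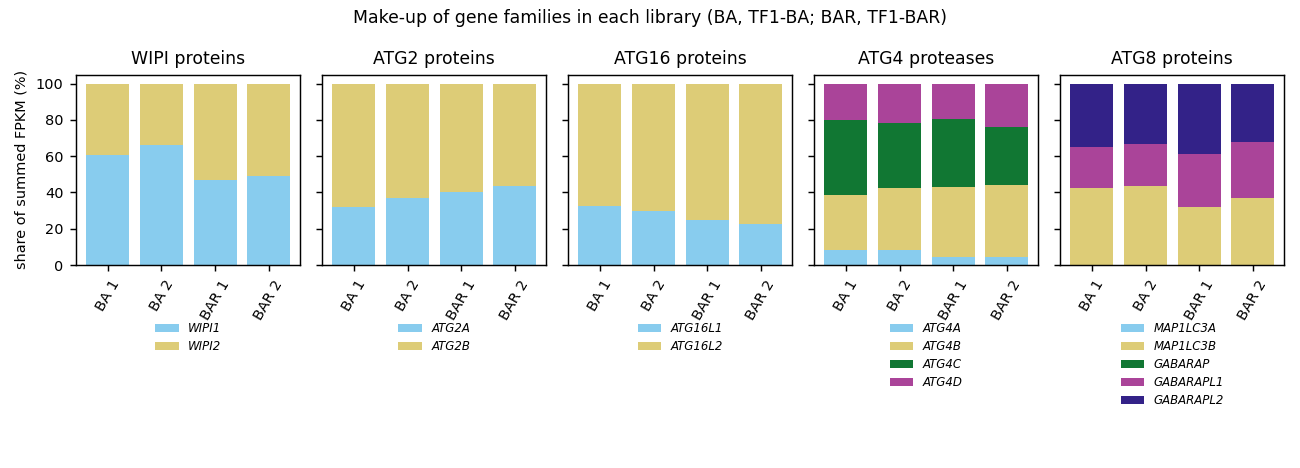
Share of each gene in the summed FPKM of the listed members of its family (vertical axis, percent) in each of the 4 libraries. The families are WIPI, ATG2, ATG16, ATG4 and ATG8, without the unlisted relatives WDR45, WDR45B and MAP1LC3B2. The WIPI1 and MAP1LC3B parts are smaller, and the ATG16L2, ATG4B and GABARAPL1 parts larger, in each TF1-BAR library than in either TF1-BA library.

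The ubiquitin-binding receptors, which tether ubiquitin-marked cargo to ATG8 proteins, were lower in both TF1-BAR libraries for all 5 members, and 2 of them (40%) passed the test as lower. Among all genes tested, 10.5% passed as lower, and 28.4% were lower in both TF1-BAR libraries without overlap. NBR1 (ENSG00000188554, chr17:43170481-43211689, plus strand), a receptor for aggregates and peroxisomes, was 16.6 and 17.2 FPKM in TF1-BA and 11.9 and 11.6 FPKM in TF1-BAR. The replicates were close, and this member had the smallest adjusted p of the list (−0.51 ± 0.07, adjusted p = 0.0110, limma). Of the exon bases of NBR1, 5.5% overlap a noncoding gene on the other strand. CALCOCO2 (ENSG00000136436, chr17:48830988-48866522, plus strand), also known as NDP52 and a receptor for bacteria and mitochondria, was 16.1 and 15.6 FPKM in TF1-BA and 12.4 and 11.7 FPKM in TF1-BAR. Each TF1-BAR value was below each TF1-BA value (−0.38 ± 0.07, adjusted p = 0.0235, limma).

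The remaining 3 receptors did not pass the test. SQSTM1, which encodes p62, was 11.2 and 14.4 FPKM in TF1-BA and 9.90 and 10.4 FPKM in TF1-BAR. The TF1-BA libraries differed widely between themselves, and the difference was −0.31 ± 0.13, adjusted p = 0.140. Of its exon bases, 22.4% overlap genes on the other strand, chiefly MRNIP, which was 3.49 and 3.55 against 4.07 and 4.76 FPKM. TAX1BP1 was 14.7 and 15.5 against 13.001 and 11.7 FPKM (−0.28 ± 0.08, adjusted p = 0.0645). OPTN, a receptor in mitophagy, was 12.4 and 11.7 against 8.54 and 10.5 FPKM (−0.33 ± 0.12, adjusted p = 0.0972). OPTN lies on chromosome 10, where the median log2 fold change of 593 genes was −0.35, and its difference was 0.02 after chromosome medians were removed. The other receptors kept their sign in that setting.

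Among the mitophagy proteins, BNIP3L (ENSG00000104765), also called NIX and the receptor that clears mitochondria from maturing red cells, was upregulated. It was 15.4 and 16.2 FPKM in TF1-BA and 20.7 and 19.4 FPKM in TF1-BAR. Both TF1-BAR libraries were higher (0.33 ± 0.07, adjusted p = 0.0315, limma), and 8.0% of its exon bases overlap PNMA2 on the other strand. The part of this overlap in the BNIP3L difference was not tested. FUNDC1, another receptor of the outer mitochondrial membrane, was 7.33 and 6.98 against 5.90 and 6.85 FPKM, lower in both TF1-BAR libraries (−0.16 ± 0.10, adjusted p = 0.283). PINK1, the kinase that recruits parkin, was 1.30 and 1.30 against 1.15 and 1.58 FPKM, its libraries overlapped and its log2 fold change was 0.05 ± 0.16. Its values are uncertain, since 39.5% of its exon bases lie opposite PINK1-AS.

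Neither MiT/TFE factor of the list, which switch on lysosomal and autophagy genes, was called. TFEB was 0.893 and 1.08 FPKM in TF1-BA and 1.28 and 1.27 FPKM in TF1-BAR, higher in both TF1-BAR libraries (0.26 ± 0.15, adjusted p = 0.241). TFE3 was more abundant, at 14.8 and 14.7 FPKM in TF1-BA and 11.1 and 14.8 FPKM in TF1-BAR. Only TF1-BAR replicate 1 was low for TFE3, and its difference was −0.19 ± 0.14, adjusted p = 0.350. Their adjusted p-values do not show that the levels were equal.

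Of 65 further genes of the pathway, 63 are in the table and 59 passed the filter. Of these, 15 (25.4%) passed the threshold, with 8 upregulated and 7 downregulated in TF1-BAR, and 0 passed both thresholds. Among all genes tested, 26.9% passed, 16.3% higher and 10.5% lower, and 4.75% passed both thresholds. Further receptors of selective autophagy had 1 higher (7.69%) and 4 lower (30.8%) among 13, and the regulators of initiation and of the phosphoinositide kinase had 2 and 2 among 16 (12.5% each). The fusion genes had 2 higher (20%) among 10, and the tethering and lipid genes 1 higher (11.1%) among 9. The transcription factors and coactivators had 2 higher (25%) and 1 lower (12.5%) among 8, and the remaining ATG8 and MiT/TFE genes had none called among 3.

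The 7 further genes that were called with a log2 fold change of 0.5 or more in size are named. NFE2L2, which encodes NRF2, was 27.9 and 25.8 FPKM in TF1-BA and 16.5 and 17.1 FPKM in TF1-BAR (−0.66 ± 0.07, adjusted p = 0.00776, limma). Both TF1-BAR libraries were lower. Of the 3 members whose promoters hold the antioxidant core, MAP1LC3B and CALCOCO2 were downregulated, while ATG101 was higher in both TF1-BAR libraries without being called (0.27 ± 0.09). No conclusion about NRF2 follows from these letters. DAPK1, a kinase that acts on BECN1, was 8.49 and 8.02 FPKM in TF1-BA and 13.2 and 16.1 FPKM in TF1-BAR (0.78 ± 0.11, adjusted p = 0.0125, limma). CALCOCO1, a receptor for the endoplasmic reticulum related to CALCOCO2, was 3.32 and 3.88 against 5.23 and 5.61 FPKM (0.53 ± 0.11, adjusted p = 0.0254), opposite in direction to CALCOCO2. CCPG1, another receptor for the endoplasmic reticulum, was 6.65 and 6.92 against 4.76 and 3.40 FPKM (−0.69 ± 0.16, adjusted p = 0.0356).

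The last 3 lie on chromosomes whose genes were shifted together. NCOA4, the ferritin receptor, was 42.1 and 41.5 against 26.8 and 25.4 FPKM and NRBF2, a subunit of the phosphoinositide kinase complex, was 18.05 and 20.8 against 12.5 and 12.6 FPKM, both on chromosome 10. Their log2 fold changes were −0.67 ± 0.06 and −0.61 ± 0.09, and −0.32 and −0.26 once the chromosome median of −0.35 was removed, after which NRBF2 was no longer called (adjusted p = 0.0941, limma). VPS16, a subunit of the tethering complexes of the lysosome, was 8.47 and 8.76 against 14.7 and 14.3 FPKM. It lies on chromosome 20, with a median of 0.39 over 440 genes, and its log2 fold change was 0.72 ± 0.07, and 0.33 after removal.

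**Figure D4:**
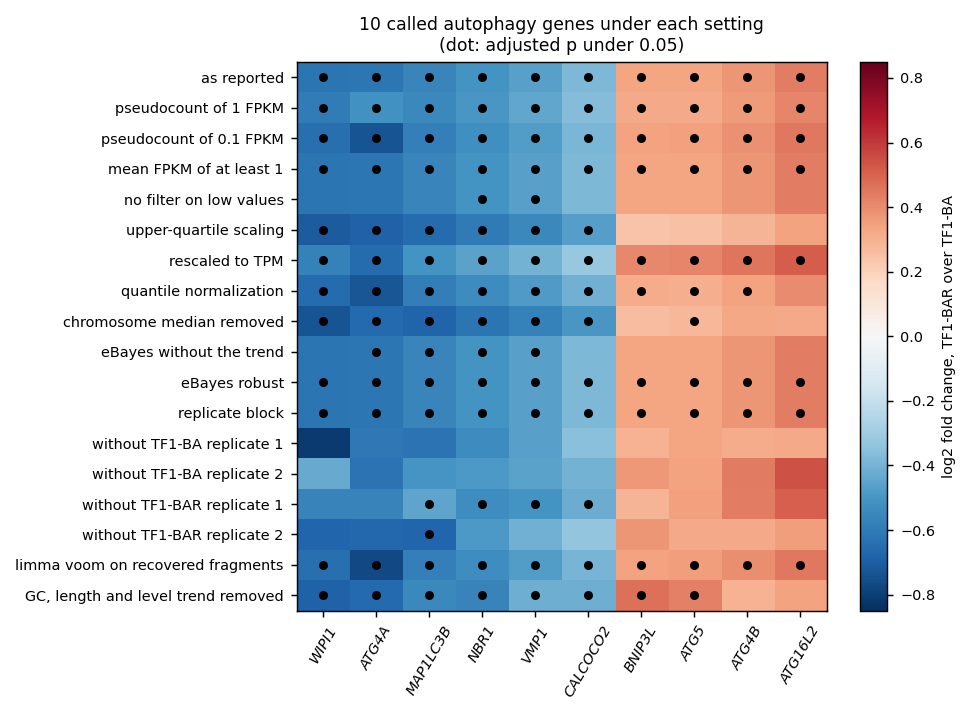
Log2 fold change (colour, TF1-BAR over TF1-BA) of the 10 called members (columns) in the reported fit and 17 alternative settings (rows), with a dot where the adjusted p was under 0.05. The colour of each column stays on 1 side of 0, while dots are missing in the settings that leave out a library, most of all without either TF1-BA replicate, and in some settings that change the filter, the scaling or the variance model.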

How the data were processed

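By the study's methods, the authors mapped paired-end reads to GRCh38 with TopHat, and ran Cufflinks and Cuffdiff (TopHat2 2.0.13, Cufflinks 2.2.0 and Cuffdiff 2.2.0 in the submitters' processing notes). Their differential expression test was DESeq2, which was not used here because the files hold FPKM. The deposited values are FPKM per gene and library, which the authors scaled to transcript length and mapped reads. The annotation release and any strand setting are not given in the sources used here. 26 gene symbols that had become dates were restored from identifiers.

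FPKM were tested as log2(FPKM + 0.5) with limma 3.58.1 in R 4.3.3 (eBayes with trend), for genes with a mean of at least 0.5 FPKM, over all 4 libraries grouped by their labels, and p-values were adjusted over all 15519 genes by Benjamini-Hochberg. Fragments were recovered as FPKM multiplied by length and library size. Of the 30853 genes above 0, 14560 came out whole within 0.005 in every library at the GENCODE 44 exon length. The other 16293 were given a length fitted to make their values whole, so their wholeness does not check the recovery. Replicates were not duplicate libraries (chi-square per degree of freedom 4.52 and 7.77).

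The members and gene lists were chosen with earlier results of these data known. By the rule for named genes, all members were described by role, with library values for called members, ATG8 genes and members below the filter. The further genes were named when called with a log2 fold change of 0.5 or more in size. WDR45, WDR45B and MAP1LC3B2 were also named, as relatives of listed members. Promoters were from RefSeq, and overlaps of exons from GENCODE 44. 15 alternatives were planned and 2 were chosen after the data had been seen: limma voom on recovered fragments, and removal by splines (4 degrees of freedom) of the dependence on GC content, mean level and exon length. Fragments cover counting error only. Some marker values are not reported here.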

Additional observations from a re-analysis of the deposited data

How the results depend on the processing

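All 10 called members remained called, in the same direction, with a pseudocount of 1 or 0.1 FPKM, a mean of at least 1 FPKM, TPM, robust eBayes and voom. The numbers of members higher and lower were 0 and 2 with no filter on low values, 0 and 4 with eBayes without the trend, and 7 and 11 by voom, against 4 and 6. Upper-quartile scaling gave 0 higher, removal of chromosome medians 1 and removal of the trend on GC content, length and level 2. Leaving out 1 library gave 0 higher and 0 to 4 lower. The further genes, 8 higher and 7 lower as reported, were 2 and 3 with no filter, 4 and 11 with upper-quartile scaling, 4 and 4 without the trend of eBayes, 5 higher after chromosome medians, 3 higher after the GC trend and 13 lower by voom. Leaving out 1 library gave 0 to 6 higher and 0 to 9 lower. The count past both thresholds was 0 for the members in every setting.

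The estimates of 11 members changed sign in some setting. OPTN, at −0.33 ± 0.12 as reported, did so after chromosome medians were removed. With upper-quartile scaling, PIK3C3 was −0.0375, PIK3R4 −0.0765, ATG10 −0.0582 and PINK1 −0.0201. With quantile normalization they were −0.0733, −0.0589, −0.121 and −0.0831. After chromosome medians were removed, ATG13 was −0.0143, PIK3R4 −0.0431, ATG10 −0.0459, PINK1 −0.00413 and OPTN 0.0180. After the GC trend was removed, ATG13 was −0.00653, PIK3R4 −0.0307, ATG10 −0.0861, PINK1 −0.105, ATG12 0.0616 and ATG4C 0.170. In TPM, ATG12 was 0.0371 and ATG4C 0.0341. Over the fits that leave out 1 library, values ran from −0.0387 to 0.228 for ATG13, −0.0186 to 0.0988 for PIK3C3, −0.0754 to 0.0935 for PIK3R4, −0.171 to 0.00634 for ATG3, −0.0205 to 0.0354 for ATG10, −0.161 to 0.109 for ATG12, −0.134 to 0.0690 for ATG4C, −0.0414 to 0.314 for ATG4D, −0.118 to 0.213 for PINK1 and −0.391 to 0.00371 for TFE3. In these fits the difference in family share ran from −1.55 to 2.71 percentage points for ATG4D and from −1.83 to 4.71 for GABARAPL2. The cause was not tested.

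Among all called genes, 60.9% were higher in TF1-BAR, 46% with upper-quartile scaling, 48.9% after chromosome medians, 50.4% after the GC trend, 51.4% with quantile normalization and 70.2% in TPM. TPM moved the median of all genes to 0.14. The deviations of same-numbered libraries had a correlation of 0.0646 across the genes tested. With 2 libraries per group, this cannot tell whether same-numbered libraries were prepared together. The fit with the replicate block called 4 members higher and 6 lower, the same 10. ULK2, MAP1LC3A and GABARAP were below the filter and were not compared, and the cause of their low values was not tested.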
